A study of Mus musculus with 26 samples.

Results

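IgA clonotypes of spleen and lymph node were compared in wild-type mice that had all been associated with the skin commensal Staphylococcus epidermidis, in a series concerned with germinal centres of the skin. A clonotype was a V gene, a J gene and a junction nucleotide sequence, and its IgA members were the sequences assigned to the alpha constant gene IGHA (Igha, chromosome 12, 113256204 to 113260236, GRCm38). Each tissue had 4 biological replicates of 2 technical libraries, which were added together, so that 8 of the 13 biological samples of the series were used. Spleen held 66115 IgA clonotypes of 993128 clonotypes of any class, and lymph node held 1437 of 293492, summed over replicates. No age, no separate animal per replicate and no lymph node site is stated, so p-values measure the spread between these samples only. The tissue was read from the library titles, since the tissue field gives ear skin for all of them. The cells are labelled as B cells, and heavy-chain sequences alone cannot check this against other marker genes.

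IgA is made when an activated B cell replaces its first constant gene, that of IgM, with the alpha gene, and it is the antibody class secreted most at mucosal surfaces. Activated B cells also acquire point mutations in the V segment through the deaminase AID, which prefers cytosines in WRC motifs (W stands for A or T and R for A or G) and the guanines of the complementary GYW motifs. A mutation is a replacement when it changes the amino acid and silent when it does not. The parts of the V segment covered before the junction were CDR2, a loop that can touch antigen, and framework 3, which holds the domain's fold. CDR3, the most variable loop, is encoded where V, D and J genes are joined.

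The sequences below show large IgA clonotypes of each replicate, as junctions with the CDR3 in capitals between the cysteine codon and the tryptophan codon in lower case. Those of spleen 1 and lymph node 4 marked as found in 1 library set the largest-clonotype share of their replicate, and the others were found in both technical libraries.
Spleen 1, IGHV1-26 with IGHJ3, 1 library: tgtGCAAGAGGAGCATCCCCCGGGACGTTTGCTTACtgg
Spleen 1, IGHV1-26 with IGHJ3: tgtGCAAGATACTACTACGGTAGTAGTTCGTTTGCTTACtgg
Spleen 2, IGHV3-6 with IGHJ1: tgtGCTGACTATGGTAACCTCGATGTCtgg
Spleen 3, IGHV1-76 with IGHJ1, largest: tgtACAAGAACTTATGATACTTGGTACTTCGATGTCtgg
Spleen 3, IGHV1-76 with IGHJ1, next largest: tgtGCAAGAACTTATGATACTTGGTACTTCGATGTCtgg
Spleen 4, IGHV1-26 with IGHJ2: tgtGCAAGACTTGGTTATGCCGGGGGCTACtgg
Lymph node 1, IGHV2-9-1 with IGHJ4: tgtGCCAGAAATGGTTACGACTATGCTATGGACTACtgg
Lymph node 2, IGHV5-12 with IGHJ2: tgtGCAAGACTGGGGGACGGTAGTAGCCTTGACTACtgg
Lymph node 3, IGHV1-53 with IGHJ4: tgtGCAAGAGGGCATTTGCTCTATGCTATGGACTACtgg
Lymph node 3, IGHV1-26 with IGHJ1: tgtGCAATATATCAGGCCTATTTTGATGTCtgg
Lymph node 4, IGHV5-9-1 with IGHJ4, 1 library: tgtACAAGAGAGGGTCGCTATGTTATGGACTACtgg
Lymph node 4, IGHV1-9 with IGHJ2: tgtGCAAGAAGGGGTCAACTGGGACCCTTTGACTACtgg

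IgA was a large class in spleen and a small one in lymph node. It held 30.7%, 30.5%, 28.6% and 35.3% of all copies in spleen 1 to 4 and 1.22%, 1.07%, 1.79% and 5.27% in lymph node 1 to 4. A copy is a unit of the deposited count of a sequence, which may be a molecular identifier or a read. In these bulk samples, fewer IgA cells and less IgA RNA per cell cannot be told apart. Spleen replicates held 49785, 415794, 130922 and 245211 IgA copies in 3427, 33515, 11670 and 17503 clonotypes. Lymph node replicates held 1134, 2442, 2210 and 11479 IgA copies in 223, 467, 287 and 460 clonotypes. Clone size, V family, J gene, CDR3 and mutation measures were therefore taken at 1134 IgA copies per replicate, unless stated otherwise. These are all the copies of lymph node 1, and values are means over 100 random draws. The number of cells behind those copies may still differ. Library checks, sharing, named clonotypes and V genes used all IgA copies.

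Several libraries stood apart. Technical library 1 of lymph node 4 held 9068 IgA copies and library 2 of it 2411. A single clonotype of IGHV5-9-1 and IGHJ4 held 5459 copies there, 60.2% of that library's IgA and 47.6% of the replicate's, and had 0 copies in library 2. It was a single nucleotide sequence with 1 V mismatch before the junction, and it had 17 copies in the other 7 replicates together. Its lineage, meaning clonotypes that match in V gene, in J gene, in CDR3 length and in at least 85% of CDR3 nucleotides, held 34 clonotypes, of which 22 had library 2 copies, 33 copies in all. The other one-library clonotype of 100 or more copies in lymph node 4 used IGHV6-3 and held 1201 copies. Such clonotypes numbered 2, 50, 6 and 5 in spleen 1 to 4 and 0 in lymph node 1 to 3. The largest in spleen used IGHV6-3 in replicate 2 (7561 copies) and IGHV1-26 in replicate 1 (3164 copies).

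Clonotypes were shared mainly between tissues of the same replicate number. Lymph node 1 to 4 had 37, 244, 104 and 161 IgA clonotypes in common with the spleen of the same number. These were 16.6%, 52.2%, 36.2% and 35.0% of the lymph node clonotypes and 1.08%, 0.728%, 0.891% and 0.920% of the spleen clonotypes. They held 34.0%, 85.8%, 79.5% and 78.2% of lymph node IgA copies. Most of the 78.2% in lymph node 4 was the IGHV5-9-1 clonotype above, with 47.6% of that replicate's IgA copies, found there in 1 technical library only. With a spleen of another number, lymph nodes shared 0 to 7 clonotypes in every pair but 1. Lymph node 1 shared 51 with spleen 2 (22.9% of its clonotypes, 0.152% of those of spleen 2), more than with spleen 1. The labels do not say that equal numbers mark the same animal.

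IgA copies of the lymph node were concentrated in fewer and larger clonotypes than those of the spleen. In 1134 copies, spleen 1 to 4 held 449, 601, 550 and 545 distinct clonotypes and lymph node 1 to 4 held 223, 279, 202 and 91.6. The groups did not overlap, with means of 536 ± 63.6 and 199 ± 78.5 (SD, n = 4 each), a 2.70-fold difference (exact two-sided permutation p = 0.0286, adjusted p = 0.0357). The smallest p that 4 against 4 samples allow is 0.0286. Without technical library 1 of lymph node 4 the lymph node mean was 217 ± 47.8, and lymph node 4 held 165 clonotypes. Counted per lineage, the spleens held 339 ± 39.3 lineages and the lymph nodes 153 ± 60.2, a difference of 186 in place of 337, and the groups stayed apart (exact permutation adjusted p = 0.0357, n = 4 each).

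The largest clonotype held 6.42%, 3.88%, 5.27% and 3.70% of the drawn copies in spleen 1 to 4 and 14.4%, 30.1%, 31.1% and 47.4% in lymph node 1 to 4. Every lymph node was above every spleen, with means of 30.7% ± 13.5 and 4.82% ± 1.28 (SD, n = 4 each, exact permutation adjusted p = 0.0357). Without technical library 1 of lymph node 4, the largest clonotype of that replicate held 16.7% and the lymph node mean was 23.1% ± 8.76. With any 1 spleen left out the adjusted p was 0.0714. The 10 largest clonotypes together held 17.5% to 26.1% of copies in spleen and 49.3% to 87.1% in lymph node (64.5% ± 16.4 against 20.2% ± 4.02, exact permutation adjusted p = 0.0357, n = 4 each). The inverse Simpson number is the count of equally large clonotypes that would give the same sum of squared copy shares. It depends on both the number and the evenness of clonotypes. Its values were 82.8, 156, 145 and 160 in spleen and 19.8, 9.72, 7.90 and 4.02 in lymph node. These did not overlap either (exact permutation adjusted p = 0.0357, n = 4 each), but the adjusted p was 0.0571 without lymph node 4. The lowest of them, in lymph node 4, was 12.7 without its technical library 1. Per lineage, the inverse Simpson number was 47.3 ± 6.39 and 9.86 ± 6.20, and the 10 largest lineages held 38.2% ± 3.59 and 67.7% ± 15.2 of copies (each exact permutation adjusted p = 0.0357, n = 4 each). Clonotypes with 1 drawn copy were 69.7% ± 3.84 of spleen clonotypes and 59.4% ± 12.2 of lymph node clonotypes, and here the groups overlapped (exact permutation adjusted p = 0.143, n = 4 each).

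**Figure D1:**
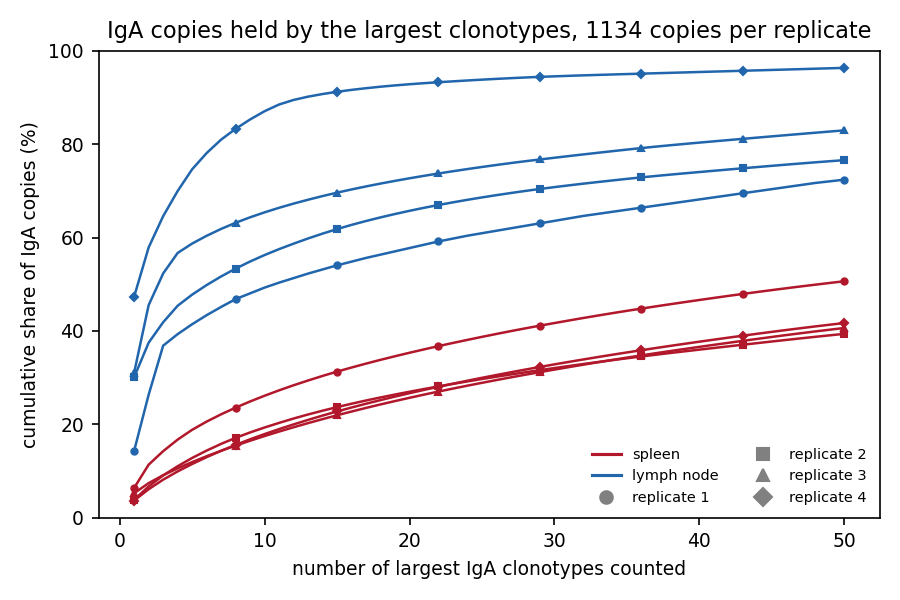
Cumulative share of IgA copies (y axis, percent) against the number of largest clonotypes counted (x axis), 1 line per replicate at 1134 copies, spleen in red and lymph node in blue. After 10 clonotypes the spleen lines lie between 17.5% and 26.1% and the lymph node lines between 49.3% and 87.1%.

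Replicate numbers were also used to pair the tissues. Tested by sign flips over the 4 pairs, no measure can reach a p below 0.125, so every call in the IgA comparisons ended there. In all 4 pairs the spleen held more distinct clonotypes (exact sign-flip permutation p = 0.125) and its largest clonotype held a smaller share. Any pairing of the samples gives this, since the groups did not overlap in either measure. IgM, sampled at the same number of copies, held 1021, 930, 1070 and 1079 clonotypes in spleen and 1034, 1024, 1086 and 865 in lymph node (exact permutation p = 0.743, n = 4 each). The difference of IgA minus IgM in distinct clonotypes was -489 ± 109 for the spleens and -804 ± 60.3 for the lymph nodes (SD, n = 4 each, exact permutation p = 0.0286). That comparison was added after the data were seen. No count can exceed the 1134 copies drawn, and most IgM counts lay near that ceiling, so a tissue difference in IgM could be hidden. The comparison therefore mostly repeats the IgA difference, at 315 clonotypes against 337 for IgA alone. It cannot tell whether IgM differed less between the tissues than IgA.

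The largest clonotypes found in both libraries differed in how far their most abundant sequence had left the germline V. Of the 8 clonotypes taken per tissue, 2 from each replicate, the most abundant sequence had 0 mismatches in CDR2 and framework 3 in 4 of lymph node and 2 of spleen, and 4 or more in 2 of lymph node and 4 of spleen. None of the 16 is set against a test, since they were chosen by size. In lymph node 2 the IGHV5-12 clonotype held 733 copies (30.0% of its IgA) as 1 sequence with 0 mismatches, and spleen 2 held 1169 copies of it at rank 42. In lymph node 3 the IGHV1-53 clonotype held 685 copies (31.0%) in 11 sequences, the most abundant with 1 replacement mismatch, and spleen 3 held 993 copies of it at rank 15. In lymph node 1 the IGHV2-9-1 clonotype held 163 copies (14.4%) in 11 sequences, the most abundant, with 153 copies, at 0 mismatches, and spleen 1 held 55 copies of the clonotype. In lymph node 4 the IGHV1-9 clonotype held 766 copies (6.67%) as 1 sequence with 0 mismatches and was not found with IgA in spleen 4. In spleen 2 the IGHV3-6 clonotype held 15626 copies (3.76%) as 1 sequence with 0 mismatches, and had 0 copies in lymph node 2. In spleen 4 the IGHV1-26 clonotype held 8853 copies (3.61%) in 27 sequences, the most abundant with 6 replacement and 1 silent mismatches. The pair of IGHV1-76 clonotypes of spleen 3 differed at 1 of 39 junction bases and held 6843 and 2792 copies. Of the 8 clonotypes of each tissue, 5 of spleen and 6 of lymph node were found in the other tissue of the same number, and 0 had IgM copies in their own replicate. IgM copies were also rare among all IgA clonotypes, with the highest shares at 10.6% in spleen 2 and 7.39% in lymph node 4. Finding 0 among 16 therefore does not mark a lack of IgM as a trait of large clonotypes.

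The IGHV1-26 clonotype of lymph node 3 (319 copies, rank 2) was also among the largest of spleen 3 (2157 copies, rank 3), and its most abundant V sequence differed between the tissues. The stretch from the first deposited base to the junction cysteine is shown for the germline, as the most common sequence with 0 mismatches in the files, and for the most abundant sequence of each tissue, with mismatches in capitals.
Germline IGHV1-26: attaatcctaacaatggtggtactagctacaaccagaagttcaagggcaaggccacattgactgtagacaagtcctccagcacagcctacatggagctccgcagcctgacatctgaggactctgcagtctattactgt
Spleen 3: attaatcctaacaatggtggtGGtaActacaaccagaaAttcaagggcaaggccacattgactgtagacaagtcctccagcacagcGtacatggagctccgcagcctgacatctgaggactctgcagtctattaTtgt
Lymph node 3: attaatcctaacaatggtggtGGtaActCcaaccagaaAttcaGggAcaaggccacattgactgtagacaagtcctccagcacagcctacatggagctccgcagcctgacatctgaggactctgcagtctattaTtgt
The spleen sequence had 1699 copies and 6 mismatches, 3 of them replacements. The lymph node sequence had 305 copies and 8 mismatches, 6 of them replacements. They had 5 mismatches in common, with 1 more in the spleen sequence alone and 3 in the lymph node sequence alone. The lymph node sequence also had 65 copies in spleen 3, and the spleen sequence had 0 in lymph node 3.

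IgA clonotypes of the spleen carried more V mismatches than those of the lymph node. V mutation was the percentage of aligned V bases that mismatch, with V bases inside the junction counted too. Averaged per clonotype at equal copies, it was 2.98%, 3.15%, 3.25% and 3.20% in spleen 1 to 4 and 2.35%, 2.46%, 2.48% and 1.97% in lymph node 1 to 4. The groups did not overlap, with means of 3.14% ± 0.117 and 2.31% ± 0.237 (SD, n = 4 each, exact permutation p = 0.0286, adjusted p = 0.0381). Clonotypes at 5% or more made up 23.6% ± 0.760 of the spleen's and 14.1% ± 1.74 of the lymph node's, and those at 1% or less 30.4% ± 4.93 and 42.5% ± 2.77 (each exact permutation adjusted p = 0.0381, n = 4 each). Clonotypes with 0 mismatches made up 20.9% ± 5.23 and 24.8% ± 2.79, which overlapped (exact permutation adjusted p = 0.229, n = 4 each). Without technical library 1 of lymph node 4 the lymph node mean was 2.32% ± 0.216, and without clonotypes found in the other tissue at another number it was 2.17% ± 0.245 against 3.15% ± 0.126 in spleen.

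Counted once per lineage, the difference no longer passed. Lineages had 2.27%, 2.23%, 2.56% and 2.54% mismatches in spleen and 2.24%, 2.21%, 2.09% and 1.83% in lymph node, with means of 2.40% ± 0.177 and 2.09% ± 0.189 (exact permutation adjusted p = 0.114, n = 4 each). The spleen then stood 0.31 percentage points above the lymph node, against 0.83 per clonotype. A spleen lineage held 2.05, 2.05, 2.46 and 2.54 clonotypes on average in replicates 1 to 4, and a lymph node lineage 1.3, 1.36, 1.37 and 1.52, over all copies. The spleens had many more copies there, so these averages are not at equal depth. At equal copies, the means were 536 clonotypes and 339 lineages in spleen, and 199 and 153 in lymph node. Weighted by copies in place of clonotypes, V mutation was 3.36% ± 0.219 in spleen and 1.77% ± 0.552 in lymph node.

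**Figure D2:**
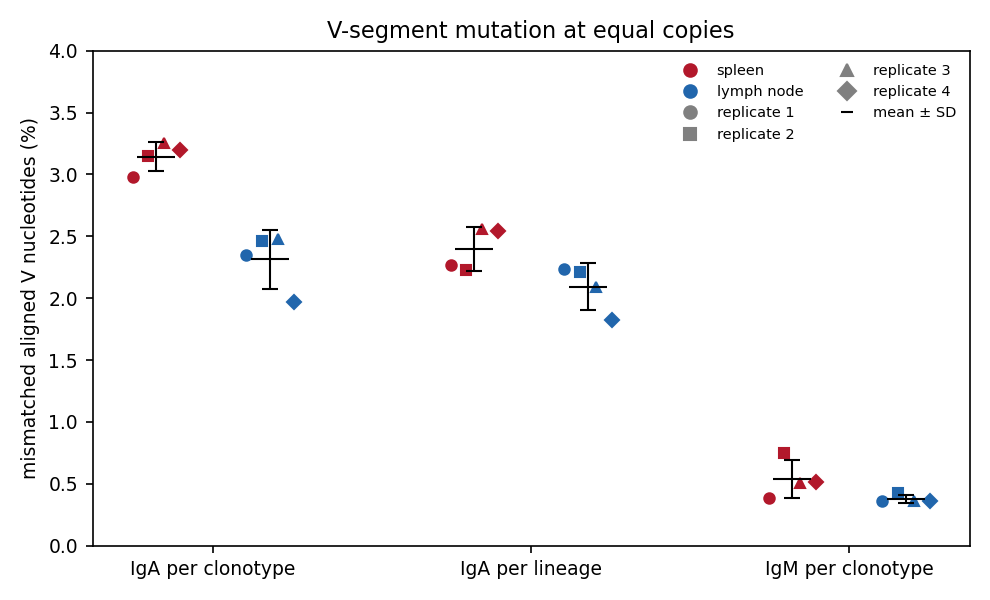
Mismatched V bases (y axis, percent of aligned bases) for IgA per clonotype, IgA per lineage and IgM per clonotype, with points for the 4 replicates of each tissue and bars for mean ± SD. The IgA points of the tissues are apart per clonotype (2.98% to 3.25% against 1.97% to 2.48%) and overlap per lineage (2.23% to 2.56% against 1.83% to 2.24%).

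IgM of the same samples was far less mutated, at 0.386%, 0.752%, 0.506% and 0.512% in spleen and 0.359%, 0.429%, 0.358% and 0.360% in lymph node, and the groups overlapped (exact permutation p = 0.0571, n = 4 each). IgA exceeded IgM by 2.61 ± 0.154 percentage points in spleen and by 1.94 ± 0.226 in lymph node (SD, n = 4 each). That excess differed between the tissues by 0.67 points (exact permutation p = 0.0286). This was computed per clonotype and was not run per lineage. As a ratio of spleen over lymph node, mean V mutation was 1.36 in IgA and 1.43 in IgM. The larger IgA difference therefore holds in percentage points only.

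Within the lymph node, clonotypes also found in the spleen of the same number carried more mismatches than the rest. Their averages over all copies were 2.89%, 2.74%, 3.04% and 2.42% in replicates 1 to 4, against 2.24%, 2.24%, 2.25% and 1.79% for clonotypes not found there, higher in 4 of 4 lymph nodes. Shared clonotypes of the spleen had 2.88%, 2.85%, 3.41% and 2.30% against 3.12%, 2.95%, 3.37% and 3.25%, lower in 3 of 4. The 10 largest clonotypes averaged 3.38%, 4.89%, 4.36% and 4.14% in spleen 1 to 4 and 3.28%, 2.97%, 2.49% and 1.54% in lymph node 1 to 4. Clonotypes that also had IgM copies were less mutated in every replicate than those without, at 1.34% to 1.77% in the spleens and 0.494% to 1.34% in the lymph nodes. Those with IgM copies numbered 137, 3559, 469 and 843 in spleen 1 to 4 but only 16, 9, 21 and 34 in lymph node 1 to 4. These values describe classes within a sample and were not tested.

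**Figure D3:**
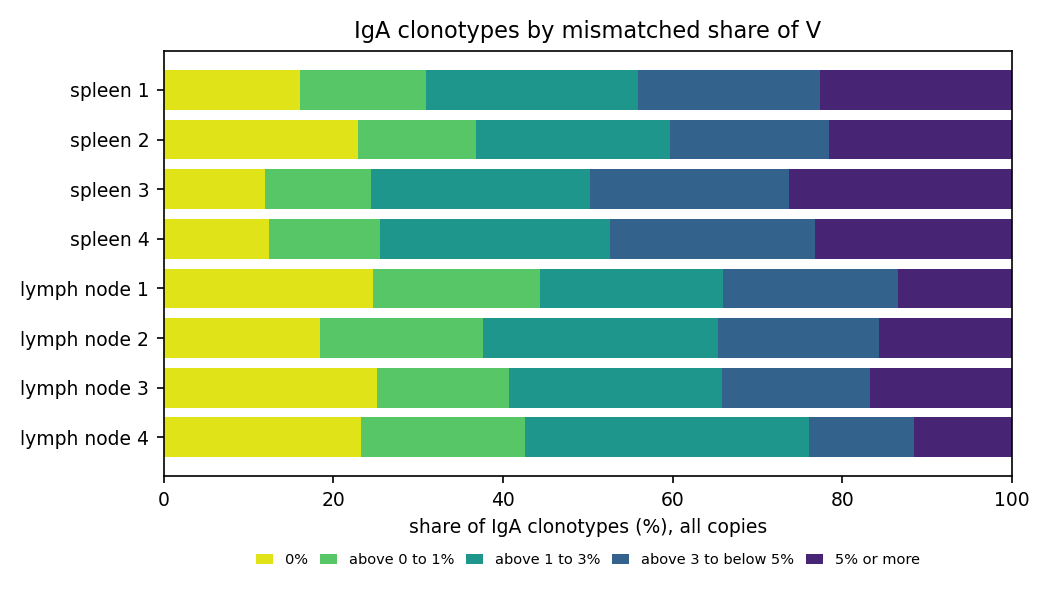
Share of IgA clonotypes (x axis, percent, all copies of a replicate) by mismatched share of V, 1 bar per replicate. Clonotypes at 5% or more make up 21.6% to 26.2% of the spleen bars and 11.5% to 16.7% of the lymph node bars.

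Mismatches were denser in CDR2 than in framework 3 in both tissues. Per germline base, CDR2 had 4.56%, 4.79%, 5.13% and 4.59% mismatches in spleen and 3.23%, 3.26%, 2.81% and 2.82% in lymph node. Framework 3 had 2.61% to 2.76% in the spleens and 1.69% to 2.35% in the lymph nodes. Neither region's groups overlapped (each exact permutation p = 0.0286, adjusted p = 0.0286, n = 4 each; adjusted p = 0.0571 without spleen 3). These rates were added after the data were seen per clonotype only, and repeat the mutation level above.

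The share of mismatches that replaced an amino acid was somewhat higher in spleen but did not pass the test. It was 72.1%, 70.8%, 72.1% and 68.0% in spleen 1 to 4 and 66.4%, 68.9%, 67.2% and 66.5% in lymph node 1 to 4, where spleen 4 lay within the range of the lymph nodes (70.7% ± 1.92 against 67.3% ± 1.17, SD, n = 4 each, exact permutation p = 0.0571, adjusted p = 0.0857). Without spleen 4 the groups did not overlap and the adjusted p was 0.0429. The difference of 3.46 percentage points was 1.02 over all IgA copies (exact permutation p = 0.429, n = 4 each) and 1.61 without clonotypes of 1 copy (exact permutation p = 0.257, n = 4 each). In CDR2 the share was 82.6% ± 2.25 in spleen and 80.1% ± 5.50 in lymph node (exact permutation adjusted p = 0.514, n = 4 each), and in framework 3 66.3% ± 1.65 and 63.4% ± 0.460 (exact permutation adjusted p = 0.0857, n = 4 each). The authors' deposited silent and replacement columns, which also cover V bases inside the junction, gave 73.9% ± 2.15 and 70.5% ± 1.18 (exact permutation adjusted p = 0.129, n = 4 each). Replicates differed in depth here, since 1816 to 2506 mismatches stood behind a spleen value and 238 to 901 behind a lymph node value, with 62.1 in CDR2 of lymph node 4.

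Mismatches fell more often in AID motifs in every spleen than in any lymph node, but this also missed the adjusted threshold. At the C of WRC or the G of GYW lay 39.0%, 36.2%, 37.8% and 37.9% of spleen mismatches and 31.4%, 32.1%, 34.1% and 27.1% of lymph node mismatches (37.7% ± 1.18 against 31.2% ± 2.93, SD, n = 4 each, exact permutation p = 0.0286, adjusted p = 0.0857 over 3 measures). Such bases made up 14.3% to 14.5% of the germline stretch of spleen clonotypes and 13.9% to 14.3% of that of lymph node clonotypes, so both tissues exceeded the germline share. Taken over all copies, the groups overlapped at 31.0% to 34.2% and 23.1% to 32.9%. They also overlapped with only clonotypes found in both technical libraries (38.8% ± 1.23 and 36.6% ± 3.14, a difference of 2.22 in place of 6.56 points) and weighted by copies, where the lymph nodes ranged from 13.3% to 53.8%. Transitions were 59.9% ± 0.652 and 61.8% ± 1.04 of mismatches (exact permutation adjusted p = 0.0857, n = 4 each). Mismatches at germline G or C were 51.7% ± 1.35 and 48.7% ± 4.72 (exact permutation adjusted p = 0.20, n = 4 each), with lymph node 4 lowest at 41.7%.

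**Figure D4:**
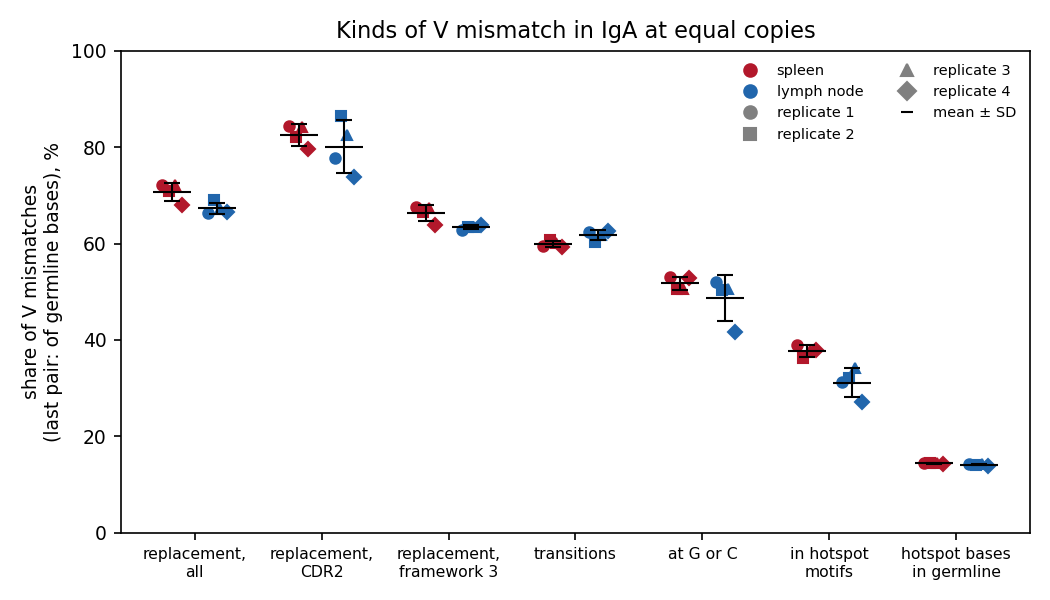
Share of V mismatches in IgA (y axis, percent) that were replacements, in all and by region, transitions, at germline G or C, or at hotspot motifs, and in the last pair the share of germline bases in those motifs, with points for replicates and bars for mean ± SD. The hotspot points of spleen (36.2% to 39.0%) lie above those of lymph node (27.1% to 34.1%).

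IGHV1-26, IGHV1-55 and IGHV1-53 had the highest shares of IgA clonotypes in both tissues, and no V gene passed the adjusted threshold. V gene shares and tests used the clonotypes of all IgA copies, 3427 to 33515 per spleen and 223 to 467 per lymph node. Of 53 V genes tested on clonotype numbers, 0 were called (0.0%) by edgeR's quasi-likelihood test and 6 had an unadjusted p under 0.05. DESeq2 called 1 of 137. IGHV1-26 (chromosome 12, 114788372 to 114788665, GRCm38) held 12.3%, 9.15%, 6.89% and 8.54% of clonotypes in spleen 1 to 4 and 8.97%, 8.35%, 7.32% and 5.43% in lymph node 1 to 4, and ranked first in both. IGHV1-55 held 7.94% ± 2.47 and 6.59% ± 2.99 and came next, and IGHV1-53 held 5.52% ± 0.814 and 4.94% ± 2.02 and followed at rank 3 (SD, n = 4 each). IGHV1-82 held 3.8% ± 0.249 and 3.67% ± 2.08, and IGHV1-64 held 3.93% ± 1.64 and 3.06% ± 2.63. IGHV1-18 held 2.15% ± 0.325 and 3.55% ± 0.654, a log2 ratio of spleen over lymph node of -0.69 ± 0.33 (SE, edgeR adjusted p = 0.323).

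The V genes with the lowest p-values, named after their values were seen, rested on few lymph node clonotypes. IGHV1-39 (chromosome 12, 114914599 to 114914892) held 0.642%, 0.665%, 0.351% and 0.634% of spleen clonotypes and 1.35%, 2.14%, 1.05% and 4.13% of lymph node clonotypes, with every lymph node above every spleen. Such separation was not particular to it, since IGHV1-18, IGHV3-8, IGHV14-4 and IGHV1-5, for example, did not overlap either. The log2 ratio of IGHV1-39 was -1.96 ± 0.55 (SE, edgeR adjusted p = 0.0776), and with DESeq2 the adjusted p was 0.0172. IGHV1-39 also had a lower share in spleen than in lymph node among IgM clonotypes, where edgeR's adjusted p was 0.00141, and the test of IgA against IgM gave 0.841 for it. IGHV1-5 (chromosome 12, 114513330 to 114513623) had 51, 211, 60 and 120 clonotypes in the spleens and 0 of 1437 in the lymph nodes, which allows a share of up to 0.209% by a floor of 3 clonotypes over the group. The share over all spleen clonotypes pooled, 0.669%, was 3.20-fold that value, and single spleens ranged from 0.514% to 1.49%. Pooled clonotypes leave out the spread between replicates, so this ratio is not a bound on the difference between tissues. The edgeR test, which used the replicates, gave an adjusted p of 0.0745. Among IgM clonotypes IGHV1-5 was also higher in spleen, with a log2 ratio of 1.29 (edgeR adjusted p = 0.0111). The edgeR test of IgA against IgM gave an adjusted p of 0.416 for IGHV1-5. IGHV5-9-1 had 3, 1, 1 and 43 clonotypes in lymph node 1 to 4 and a log2 ratio of -2.28 ± 0.80 (SE, edgeR adjusted p = 0.215). Without lymph node 4 its log2 ratio was 0.36. That lymph node holds the large IGHV5-9-1 lineage of 34 clonotypes described above.

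IgM clonotypes gave 39 calls among 98 V genes (39.8%) in a separate edgeR fit of the same form. That fit was more precise for IGHV1-18, with a log2 ratio of -0.55 ± 0.12 in IgM against -0.69 ± 0.33 in IgA (SE). Numbers of calls in IgM and IgA therefore cannot be compared directly. The test of whether the IgA difference between tissues was other than that of IgM called 0 of 90 (0.0%), with 3 at an unadjusted p under 0.05, and DESeq2 called 0 of 157. On simulated counts with genes changed 4-fold, the IgA fit recovered 100% of 12 changed genes among 53 with 1 false call. The IgA against IgM fit recovered 40% of 15 among 93. The simulated spread between replicates was set in advance and not taken from these data. Recovery was counted only among changed genes that passed the low-count filter. In the data, IGHV1-39 had an IgA log2 ratio of -1.96 and was not called, so the lack of calls does not exclude differences of that size.

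No V family passed the test (0 of 9, 0.0%). IGHV1 was the largest, with 73.2%, 65.3%, 66.8% and 71.5% of spleen clonotypes and 66.4%, 64.5%, 68.6% and 64.0% of lymph node clonotypes. IGHV14 held 6.34% ± 3.45 of clonotypes in the spleens and 2.18% ± 1.86 in the lymph nodes (SD, n = 4 each, exact permutation adjusted p = 0.386), and IGHV5 held 6.27% ± 1.57 and 10.7% ± 5.34 (exact permutation adjusted p = 0.450, n = 4 each), with lymph node 4 highest at 16.9%. IGHV8 had the lowest p (2.21% ± 0.831 against 1.25% ± 0.298, exact permutation p = 0.0571, adjusted p = 0.386, n = 4 each). The families IGHV2, IGHV3, IGHV6, IGHV7 and IGHV9 each held 1.58% to 4.29% of clonotypes on average in either tissue, with exact permutation adjusted p of 0.617 to 0.80.

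No J gene passed the test (0 of 4, 0.0%), and lymph nodes varied widely among themselves. IGHJ3 held 34.8%, 28.9%, 25.6% and 34.6% of spleen clonotypes and 17.0%, 26.9%, 11.2% and 16.3% of lymph node clonotypes, where lymph node 2 lay above spleen 3 (31.0% ± 4.49 against 17.8% ± 6.56, exact permutation p = 0.0571, adjusted p = 0.229, n = 4 each). IGHJ4 held 17.9%, 23.3%, 29.2% and 17.9% in spleen and 49.3%, 16.3%, 46.2% and 27.2% in lymph node (exact permutation adjusted p = 0.514, n = 4 each). IGHJ2 held 27.0% ± 4.31 and 29.7% ± 14.4, and IGHJ1 20% ± 3.96 and 17.7% ± 3.99 (exact permutation adjusted p = 0.743 and 0.571, n = 4 each). In IgM, IGHJ3 held 8.95% to 12.8% of spleen clonotypes and 7.16% to 7.98% of lymph node clonotypes.

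**Figure D5:**
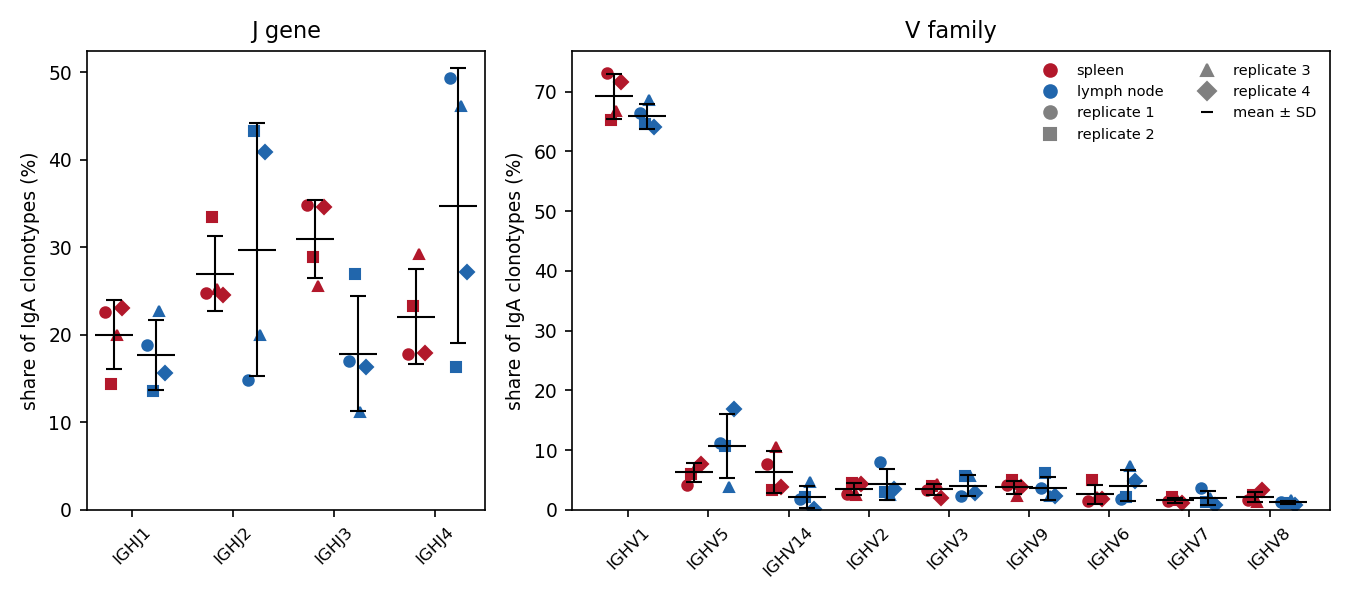
Share of IgA clonotypes (y axis, percent) by J gene and by V family at 1134 copies, with points for replicates and bars for mean ± SD. IGHV1 is the largest family in every replicate, and IGHJ4 ranges from 16.3% to 49.3% among the lymph nodes.

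No CDR3 difference passed the test (0 of 5 measures). Its mean length was 11.8, 11.6, 11.8 and 12.0 amino acids in spleen 1 to 4 and 12.9, 11.7, 11.9 and 12.0 in lymph node 1 to 4 (exact permutation adjusted p = 0.600, n = 4 each). A CDR3 of 8 or fewer amino acids was found in 8.98% ± 2.61 of spleen and 7.87% ± 3.39 of lymph node clonotypes. Tyrosine made up 19.1% ± 1.11 and 20% ± 0.472 of CDR3 residues, the measure with the lowest p (exact permutation p = 0.20, adjusted p = 0.600, n = 4 each). Mean net charge was -0.32 ± 0.11 and -0.40 ± 0.18, and mean Kyte-Doolittle hydropathy, a scale on which higher values are more hydrophobic, was -0.63 ± 0.08 and -0.69 ± 0.14 (SD, n = 4 each).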

How the data were processed

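Per the labels' protocols, a repertoire service reverse-transcribed RNA with constant-region primers carrying a 10-nucleotide identifier and amplified it with V primers. The deposited count of each sequence is called copies, and no source used here says whether it counts identifiers or reads. The deposited tables also give V mismatches and aligned V length. Per the submitters' processing notes the build was mm10, and gene positions come from RefSeq's GRCm38 table, which matched 101 of 138 V genes.

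Deposited sequences began at CDR2, so the planned framework 2 measure could not be made and 3 replacement measures were adjusted together. Mismatches were classed against the most common 0-mismatch sequence of each of 117 V alleles, up to the junction (98.7% of IgA sequences). Measures were means over 100 draws of 1134 copies, compared by exact two-sided permutation over 70 splits with Benjamini-Hochberg adjustment within each family of measures. V genes were tested with edgeR 4.0.16 (R 4.3.3, TMM, low-count filter), with DESeq2 1.42.0 as an alternative, tested on simulated data. Other steps used Python 3.11.15 with pandas 2.3.3 and numpy 2.4.6. Deviations of V gene use correlated by 0.47, 0.13, 0.40 and 0.52 between same-numbered tissues, so numbers were taken to pair samples by the rule that each exceeds 0.1. The labels do not state the pairing. By these correlations it is weak for number 2, since spleen 3 with lymph node 2 gave 0.16 and spleen 2 with lymph node 3 gave 0.17. By shared clonotypes it is number 1 that is in doubt, as lymph node 1 shared 37 with spleen 1 and 51 with spleen 2. Lymph node 2 shared 244 with spleen 2 and at most 7 with another spleen. Intervals and floors cover counting error only. Named V genes were the 5 with the highest mean share in each tissue, and named clonotypes the 2 largest of each replicate found in both technical libraries. Members and lists were chosen with earlier results of these data known.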

Additional observations from a re-analysis of the deposited data

Results flagged for a closer look

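IGHJ2 in spleen replicate 2 stood far from the other spleens. It held 33.4% of that replicate's IgA clonotypes, against 24.5% to 25.2% in the other spleens, a gap of 0.921 of the group's range. This was 1 of 66 groups of 4 values examined, and chance gives about 1 in 20. Spleen 2 also held 50 of the large clonotypes found in 1 technical library only. Their part in the IGHJ2 share was not tested.

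The difference in V mutation between spleen and lymph node was larger in IgA than in IgM, by 0.67 percentage points (exact permutation p = 0.0286, n = 4 each). The IgA excess did not overlap between the tissues, so any pairing gives a higher spleen value and a count of pairs adds no support. This larger difference was computed per clonotype and not per lineage, the count under which the IgA difference itself no longer passed. As a ratio of spleen over lymph node, mean V mutation was 1.36 in IgA and 1.43 in IgM, so IgA was not the higher on that scale.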

How the results depend on the processing

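Depth limits the lymph node values, which rest on 1134 to 11479 IgA copies and 238 to 901 drawn mismatches. Differences below are spleen minus lymph node, in percentage points for shares. With the replicate block over 4 pairs, no family of measures had a call (0): distinct clonotypes differed by 337, V mutation by 0.83, the IgA minus IgM mutation by 0.67 and the IgA minus IgM distinct clonotypes by 315, all of the same size as without the pairing but short of the threshold. The block changed no call among V genes (0 of 53).

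Per lineage, V mutation differed by 0.31, and by 0.32 with lineages joined within each draw, with 0 of 4 mutation measures called either way. The cause was not tested.

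V gene calls were 0 in the reported fit, 1 with DESeq2 (IGHV1-39), 4 with no filter on low counts (IGHV1-5, IGHV14-1, IGHV14-3 and IGHV5-9-1), 1 with lineages (IGHV1-39) and 0 to 2 with 1 replicate left out (IGHV5-9-1 without lymph node 2, IGHV1-39 and IGHV5-9-1 without lymph node 3). Leaving out a spleen cut the V genes tested from 53 to between 14 and 16, and the draw at equal copies tested 9. The median log2 ratio was 0.25 over the V genes of the reported fit and -0.85 over the 137 of DESeq2. IgA against IgM calls were 0 to 1 with 1 replicate left out (IGHV12-3 without spleen 2).

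With 1 replicate left out, calls among replacement measures were 0 to 2 (2 without spleen 4; replacement share difference 3.01 to 4.37, and 1.02 to 4.34 over the other alternatives), among mismatch types 0 to 2 (2 without lymph node 2; hotspot difference 5.21 to 7.53, and 2.22 to 7.44 over the other alternatives) and among mismatch rates 0 to 2 (0 without spleen 3). The share of clonotypes with 1 drawn copy cannot be read without clonotypes of 1 copy or with only clonotypes in both libraries, since lymph node 1 then keeps all its copies and its share is 0 by construction.

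Of 872 values under alternatives, 37 changed sign, all in differences that did not pass the threshold. With only clonotypes in both libraries, the differences were -0.27 (IGHJ1), 1.74 (0 mismatches), -0.35 (CDR2 replacement share) and 0.71 (IGHV7). With lineages they were 2.34 (0 mismatches), -0.077 (IGHV1) and 0.040 (IGHV7), and with lineages joined in each draw 2.25, -0.16 and 0.019. With copies as weights they were 0.077 amino acids (CDR3 length), 0.17 (0 mismatches), -1.31 (framework 3 replacement share), 0.032 (IGHV3) and 0.39 (IGHV7). With all copies the share of CDR3s of 8 or fewer amino acids differed by -0.40, and without clonotypes of 1 copy IGHV9 differed by -0.15. With 1 replicate left out, ranges were -7.72 to 1.77 for IGHJ2, -0.013 to 0.095 for hydropathy, -1.38 to 0.47 for IGHV2, -0.75 to 0.19 for IGHV7 and -0.25 to 1.08 for IGHV9. Log2 ratios were -0.23 for IGHV1-26 and -0.049 for IGHV1-82 by lineages, -0.11 for IGHV1-53 and -0.17 for IGHV1-82 in a draw at equal copies, and -1.16 for IGHV1-53 by copies. With 1 replicate left out, IGHV1-53 ranged from -0.12 to 0.53, IGHV1-64 from -0.039 to 1.27, IGHV1-82 from -0.21 to 0.59 and IGHV5-9-1 from -2.67 to 0.36.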
